A study of Homo sapiens with 16 samples.

Results

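Gene expression in Caco-2 cells after an induction of inflammatory bowel disease (IBD) was compared with that in one of the swing groups of an intestinal villus-on-chip. Caco-2 is a human colon carcinoma line that differentiates into an enterocyte-like epithelium in culture. The study sequenced mRNA of 16 libraries, 4 for each of 4 treatments. Cells were kept static, or were swung in a physiological or in a pathological way, or had IBD induced. The counts came in 4 tables coded NOS1, VOS1, VOS2 and IBD. IBD holds the induction, NOS1 was taken as the static control by elimination, and VOS1 and VOS2 are the swing tables. No label ties VOS1 or VOS2 to the physiological or the pathological swing. What agent induced IBD, at which dose and for how long, the sources used here do not give. The study's design names the induced group IBD-VOS, without saying which swing it received. The replicates are called biological, with nothing on separate cultures or chips, and the spread on which all p-values rest may therefore be technical.

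Gene features in VOS1 were shorter than those in IBD, so the comparison was limited to genes whose lengths in both lay within set limits of each other. The length used for a gene was worked out from its deposited count and its FPKM, a count scaled by gene length and library size. It was the median over libraries with 5 or more counts, so a gene needed such a library in each table. Genes were kept when the VOS1 length was 0.5 to 1.1 of the IBD length. Of 61228 genes, 16015 had a length in both tables, and 2794 of these (17.45%) were kept. The other 13221 lay below the lower limit and 0 above the upper one. WBP2 stood just outside, at a ratio of 0.49949, and PEG10 just inside, at 0.50026. The kept genes were short, with a median IBD length of 3515 bp against 30320 bp over all genes with a length. A filter on low counts left 2328 for testing.

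Total counts per library were 16307998 to 20609117 in IBD and 21868713 to 28148186 in VOS1, and 20.18% to 22.98% of the counts of each of the 16 libraries fell in the kept genes. VOS1 stood apart from the other tables. Spearman correlations between libraries over the 2328 genes were 0.923 to 0.955 between IBD and VOS1, 0.966 to 0.982 between IBD and VOS2, and 0.972 to 0.987 within IBD. Treatment, way of counting and any batch of VOS1 cannot be told apart. All 10 epithelial markers were at 1 CPM (counts scaled to the library total) or more in every table. Of leukocyte, fibroblast and endothelial markers, 5 of 14, 5 of 13 and 3 of 11 reached 1 CPM in each table. Only 2 of 10 epithelial, 2 of 14 leukocyte, 2 of 13 fibroblast and 1 of 11 endothelial markers met the length rule. For the others, levels in VOS1 and IBD may rest on features of unlike length. PTPRC (leukocytes), DCN (fibroblasts) and KDR (endothelium) had highest values of 0.196, 0.346 and 0 CPM over the 16 libraries. Other markers on these lists were higher. LAPTM5 reached 19.3 CPM, COL1A1 104 CPM and VIM 91.6 CPM, and the endothelial PECAM1, ESAM and VWF reached 24.3, 15.3 and 3.82 CPM. All CPM values compare one gene across tables and are not scaled by gene length.

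Some kept genes differed widely between VOS1 and the other 3 tables. SRSF6, a splicing factor, had 0.662 to 1.5 CPM in IBD and 292, 348, 357 and 199 CPM in replicates 1 to 4 of VOS1. COX6A1, a subunit of cytochrome c oxidase, had 0 to 8 reads per library in IBD and 2439 to 3806 in VOS1. Its length was 1339 bp in VOS1 and 2648 bp in IBD, a ratio of 0.506, near the lower limit. In VOS2 and NOS1 these 2 genes were as low as in IBD, at most 1.5 and 0.521 CPM. VIM, for vimentin, went the other way, with 0 to 6 reads per library in VOS1 and 145 to 244 in IBD. Among the 2328 tested genes, 32 were at least 8-fold lower in IBD than in VOS1, and 30 of these overlap another gene in GENCODE v29 or RefSeq. Such an overlap was found for 1187 of all 2328. Of the tested genes, 693 are called separate here. These overlap no other gene in either annotation, and their IBD length is within 10% of the annotated span. This split was chosen after seeing the data. Counts are given over all tested genes unless separate genes are named, and NFKBIA, CCN1, ENC1, the HIF targets, the apolipoproteins and the mitochondrial mRNAs are among the genes below that are not separate. The library protocol in the labels names no step that marks strand.

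EGR1 (early growth response 1), named in the title of the study, is an immediate early transcription factor that growth factors, stretch and stress switch on within minutes. Serum response factor drives it through CArG boxes in its promoter. NF-kB is the transcription factor family that inflammatory cytokines activate in epithelium. It binds kappaB sites and switches on chemokines, which recruit neutrophils and monocytes, and its own inhibitor NFKBIA. Hypoxia-inducible factor (HIF) raises glycolytic enzymes and VEGFA when oxygen is low.

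The promoters below, from RefSeq (GRCh38.p14), are those of EGR1, which was low in both IBD and VOS1, of LTB and NFKBIA, high in both, and of CXCL1 and CXCL3, high in IBD. Each shows the 250 bases before the annotated start, 5′ to 3′ on the gene's strand, with matches in capitals.
EGR1, chr5:138465229-138465478, plus strand: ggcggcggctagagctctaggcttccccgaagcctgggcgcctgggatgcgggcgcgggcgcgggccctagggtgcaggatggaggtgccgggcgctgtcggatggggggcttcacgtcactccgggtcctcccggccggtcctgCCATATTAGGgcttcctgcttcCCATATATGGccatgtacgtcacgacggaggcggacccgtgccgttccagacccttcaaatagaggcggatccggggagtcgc
LTB, chr6:31582426-31582675, minus strand: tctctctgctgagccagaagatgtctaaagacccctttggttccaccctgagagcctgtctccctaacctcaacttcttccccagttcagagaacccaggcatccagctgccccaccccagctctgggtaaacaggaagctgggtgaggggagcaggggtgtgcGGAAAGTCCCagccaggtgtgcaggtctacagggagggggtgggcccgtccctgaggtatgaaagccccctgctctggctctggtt
NFKBIA, chr14:35404750-35404999, minus strand: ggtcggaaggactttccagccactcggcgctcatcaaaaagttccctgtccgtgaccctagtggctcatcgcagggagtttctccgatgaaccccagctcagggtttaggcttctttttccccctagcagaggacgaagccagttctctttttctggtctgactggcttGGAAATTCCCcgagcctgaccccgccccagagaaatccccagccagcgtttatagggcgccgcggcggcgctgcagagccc
CXCL1, chr4:73869143-73869392, plus strand: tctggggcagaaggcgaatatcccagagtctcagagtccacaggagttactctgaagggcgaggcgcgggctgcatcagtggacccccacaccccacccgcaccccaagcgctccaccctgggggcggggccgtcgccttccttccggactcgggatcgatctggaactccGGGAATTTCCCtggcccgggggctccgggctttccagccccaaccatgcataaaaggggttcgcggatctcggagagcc
CXCL3, chr4:74038690-74038939, minus strand: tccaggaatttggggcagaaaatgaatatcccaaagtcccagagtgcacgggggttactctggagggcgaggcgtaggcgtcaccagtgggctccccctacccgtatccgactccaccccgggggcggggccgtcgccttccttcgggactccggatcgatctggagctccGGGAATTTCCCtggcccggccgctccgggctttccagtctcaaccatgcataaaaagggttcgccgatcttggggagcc
The capitals mark the CArG consensus in EGR1 and the kappaB consensus in the others, searched by name on both strands. EGR1 holds 2 CArG matches, at -105 and -83 from the start, and a CArG match is found in 1.16% of 35116 promoters. A kappaB match is found in 9.96% of them. It lies at -86 in LTB, at -81 in NFKBIA and, as 2 overlapping matches that read as one run, at -79 and -78 in CXCL1 and CXCL3. CXCL2 and CXCL5 also hold 2 overlapping matches each, and CXCL8 holds 0 in this window. Other named genes hold kappaB matches as well, whether raised or not. FJX1, low in both tables, holds 3, and ADM2, lower in IBD than in VOS1 and VOS2, holds 1. INHBB and HLA-C, lower in IBD than in VOS1 but higher in VOS1 than in NOS1, hold 1 each. MANF, higher in IBD than in VOS1 and VOS2 on counts, holds 3. GATA6-AS1, CCDC28B, ELF3 and TMSB4X, higher in IBD than in VOS2 and in VOS1 than in NOS1, hold 1 each. CYP1A1 holds 1 CArG match. A link between matches and direction was not tested. Of 90 genes named in the text, 68 had an entry.

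EGR1 was low in both IBD and VOS1. It lies on chromosome 5 from 138465490 to 138469315, plus strand (GENCODE v29, GRCh38), and is a separate gene. In IBD its level was 37.6, 44.8, 103 and 109 CPM in replicates 1 to 4, and in VOS1 56.8, 99.7, 55.9 and 27 CPM. VOS2 had 394, 376, 375 and 369 CPM and NOS1 258, 246, 253 and 200.5 CPM. The ranges of IBD and VOS1 overlapped, and each lay below every library of VOS2 and NOS1. Means were 73.6 ± 37.6 CPM in IBD and 59.8 ± 30 CPM in VOS1 (SD, n = 4). The difference between them, a log2 fold change of 0.30 ± 0.32 (SE), did not exceed the spread between replicates (edgeR adjusted p = 0.478, two-sided exact permutation p = 0.657). Without IBD replicates 3 and 4, the higher ones, it was -0.54 (edgeR adjusted p = 0.19). Against VOS2, the level in IBD was 5.15-fold lower (-2.37 ± 0.33 in log2, edgeR adjusted p = 0.000354) and against NOS1, the level in VOS1 was lower by a factor of 4.0 (-2.0 ± 0.33, adjusted p = 7.86e-05). The exact permutation test gave p = 0.0286 for both, the smallest that 4 against 4 libraries allow, and 0.0343 after adjustment over the 6 pairs of tables.

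What IBD and VOS1 share was read from 2 comparisons with no library in common, IBD against VOS2 and VOS1 against NOS1. Both come from one fit to all libraries and share its estimate of the spread, so they are not fully independent. In IBD against VOS2, 93 of 2328 genes passed an adjusted p of 0.05 (3.99%), 47 higher (2.02%) and 46 lower (1.98%). In VOS1 against NOS1, 1048 passed (45%), 571 higher (24.5%) and 477 lower (20.5%). Both called 27 genes higher, which is 57.4% of the genes higher in IBD and 4.73% of those higher in VOS1, and 3 of the genes higher in IBD were lower in VOS1. Both called 22 lower, 47.8% and 4.61%, and 8 of the genes lower in IBD were higher in VOS1. Of the 27 genes 11 also passed in IBD against VOS1, and of the 22 genes 10 did, where 40.9% of all tested genes passed. Among separate genes, 9 were higher and 9 lower in both, and 3 of each also passed in IBD against VOS1. Of all separate genes, 2.74% were higher and 2.6% lower in IBD against VOS2, and 21.8% and 24.1% in VOS1 against NOS1.

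**Figure D1:**
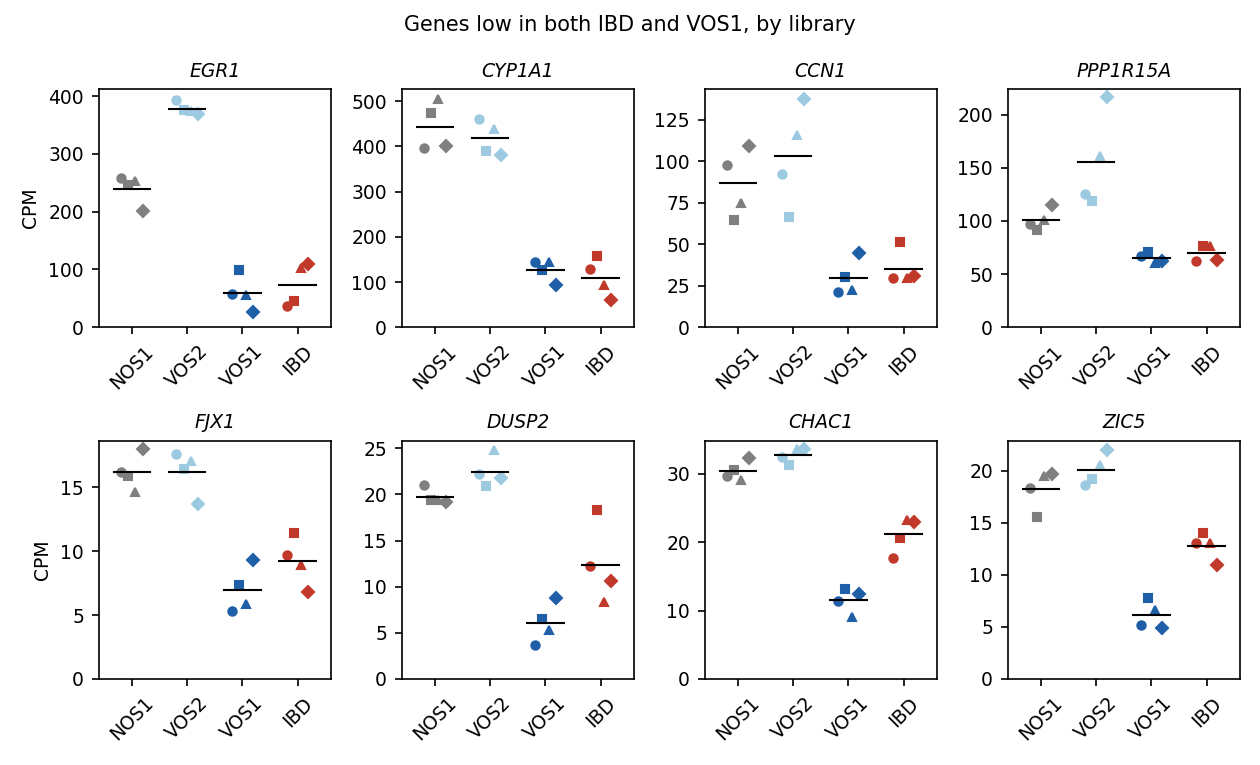
Level in CPM (linear axis) of 8 genes in the 4 libraries of each table. Points are libraries, with circle, square, triangle and diamond for replicates 1 to 4, and lines are means. EGR1 in IBD and VOS1 lies at 27 to 109 CPM, below 200.5 to 394 CPM in NOS1 and VOS2.

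CYP1A1, a xenobiotic-metabolising cytochrome P450 and the classic target of the aryl hydrocarbon receptor, was low in both as well. It was at 129.7, 157, 92.4 and 59.6 CPM in IBD, 145, 127, 145 and 93.7 CPM in VOS1, 380.4 to 461 CPM in VOS2 and 395 to 505 CPM in NOS1. The ranges of IBD and VOS1 overlapped and lay below all 8 other libraries. The log2 fold change was -1.93 ± 0.21 in IBD against VOS2 (edgeR adjusted p = 4.57e-05) and -1.8 ± 0.21 in VOS1 against NOS1 (adjusted p = 2.12e-06). Between IBD and VOS1 it was -0.22 ± 0.21 (adjusted p = 0.418).

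CCN1, a secreted matricellular protein and target of YAP and serum response factor, was at 29.8, 51.1, 29.7 and 30.7 CPM in IBD and 21, 30, 22.7 and 44.5 CPM in VOS1. VOS2 had 66.1 to 138 CPM and NOS1 64.7 to 109 CPM, so all 8 lay above IBD and VOS1. The log2 fold change was -1.54 ± 0.26 in IBD against VOS2 (edgeR adjusted p = 0.00207) and -1.55 ± 0.26 in VOS1 against NOS1 (adjusted p = 8.84e-05). The first did not pass without IBD replicates 3 and 4. CCN1 overlaps no annotated gene, but is not among the separate genes.

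PPP1R15A, the stress-induced phosphatase subunit also called GADD34, was at 62.5 to 76.7 CPM in IBD, 60.4 to 70.5 CPM in VOS1, 119 to 216 CPM in VOS2 and 91.3 to 115 CPM in NOS1. It fell in both comparisons, with log2 fold changes of -1.16 ± 0.15 and -0.64 ± 0.15. CHAC1, a glutathione-degrading enzyme of the integrated stress response, had -0.63 ± 0.12 and -1.4 ± 0.12. FJX1, a secreted Golgi-processed protein, had -0.81 ± 0.18 and -1.21 ± 0.18. Levels of FJX1 were 6.79 to 11.4 CPM in IBD and 5.3 to 9.29 CPM in VOS1, against 13.7 to 18 CPM in the other tables.

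ENC1, DUSP2, BEX2 and ZIC5 were also lower in both comparisons, with ranges apart. ENC1 encodes an actin-binding protein, DUSP2 a nuclear phosphatase of MAP kinases and ZIC5 a zinc finger transcription factor. Their log2 fold changes were -0.90, -0.86, -0.81 and -0.65 in IBD against VOS2 and -0.99, -1.7, -0.83 and -1.58 in VOS1 against NOS1. The calls of FJX1 and ZIC5 against VOS2 were lost without IBD replicate 4. That of DUSP2 was lost without any one VOS2 library or without IBD replicate 1, 3 or 4, and that of BEX2 without any one IBD library or without VOS2 replicate 3 or 4. On FPKM the calls of ENC1 and BEX2 in VOS1 against NOS1 were lost. ENC1, DUSP2, ZIC5 and CHAC1 were also higher in IBD than in VOS1, by 0.49, 1.02, 1.06 and 0.87 in log2 (edgeR adjusted p = 0.00276, 0.00143, 1.55e-05 and 1.27e-05). In IBD against VOS1 on FPKM, only the call of DUSP2 remained among these 4, and ENC1 was lower in IBD, at -0.27.

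Immediate early genes did not all follow EGR1. Of 30 listed genes 17 were tested. In IBD against VOS2, 4 were lower and 0 higher (median log2 fold change -0.387, and 0.0119 over all tested genes), where 1.98% of all tested genes were lower. VOS1 against NOS1 gave 5 lower and 1 higher (median -0.191, and -0.00907 over all), where 20.5% and 24.5% of all were. In IBD against VOS1, 1 was higher and 2 were lower, where 18.3% and 22.6% of all were. FOS, the AP-1 subunit often induced with EGR1, was at 11.9, 10.5, 48.5 and 43 CPM in IBD and 30.7, 44, 26.4 and 15 CPM in VOS1. IBD replicates 3 and 4 were higher than replicates 1 and 2, as they were for EGR1. In VOS2 FOS was at 52 to 64.2 CPM and in NOS1 at 29.7 to 37.6 CPM. It passed in none of the 3 comparisons (edgeR adjusted p = 0.949 for IBD against VOS1, 0.162 against VOS2 and 0.685 for VOS1 against NOS1). JUN, at 59.9 to 92.1 CPM in IBD and 65 to 90.1 CPM in VOS1, did not pass either.

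JUND, a constitutively expressed member of the JUN family, parted the tables. It was at 85.9, 81, 109 and 83.9 CPM in IBD and 199, 156, 143 and 180.1 CPM in VOS1, with VOS2 at 75.1 to 96.7 CPM and NOS1 at 83.6 to 96.9 CPM. VOS1 lay above the 12 other libraries, and IBD was 1.88-fold lower than VOS1 (log2 -0.91 ± 0.12, edgeR adjusted p = 7.85e-06). RHOB, an endosomal GTPase, was lower in IBD than in VOS1 (-0.49 ± 0.16), and this call was lost when VOS1 replicate 1 or 2, or IBD replicate 1 or 2, was left out. KLF10, a TGF-beta inducible repressor, was higher in IBD (0.71 ± 0.18), and at -0.14 on FPKM.

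NF-kB targets split into genes that were high in both tables and chemokines that were higher in IBD. CCL2, the monocyte chemoattractant, had the largest shared rise by the rule for named genes. It was at 21.6, 34.5, 20.6 and 30.5 CPM in IBD and 24.9, 19.6, 37.5 and 68.4 CPM in VOS1. VOS2 had 0.716 to 3.33 CPM and NOS1 0.979 to 3.5 CPM. The ranges of IBD and VOS1 overlapped, and all 8 of their libraries lay above the other 8. CCL2 was 16.9-fold higher in IBD than in VOS2 (log2 4.08 ± 0.49, edgeR adjusted p = 7.61e-05) and 22-fold higher in VOS1 than in NOS1 (4.46 ± 0.48, adjusted p = 7.54e-07). IBD and VOS1 differed by -0.49 ± 0.39 (adjusted p = 0.334).

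LTB, lymphotoxin beta, a TNF family ligand of non-canonical NF-kB signalling, showed the same pattern at lower counts. It had 116 to 140 reads per library in IBD and 146 to 481 in VOS1, against 1 to 5 in VOS2 and 1 to 19 in NOS1. In CPM that was 5.48 to 7.77 in IBD and 5.74 to 16.1 in VOS1, against at most 0.273 in VOS2 and 0.95 in NOS1. Both comparisons passed (edgeR adjusted p = 4.57e-05 and 7.14e-07), and their size rests on those few reads. IBD and VOS1 differed by -0.37 ± 0.38, and by 0.09 without VOS1 replicate 4, which had the highest LTB and CCL2.

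NFKBIA, which encodes the inhibitor IkB-alpha, was at 130.1, 153, 153 and 148 CPM in IBD and 142, 98.8, 142 and 163 CPM in VOS1. VOS2 had 43.9 to 58 CPM and NOS1 44.6 to 82.4 CPM, all below IBD and VOS1. It was 2.84-fold higher in IBD than in VOS2 (log2 1.51 ± 0.18, edgeR adjusted p = 6.04e-05) and 2.39-fold higher in VOS1 than in NOS1 (1.26 ± 0.17, adjusted p = 1.15e-05). Between IBD and VOS1 the difference was 0.10 ± 0.17 (adjusted p = 0.672).

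**Figure D2:**
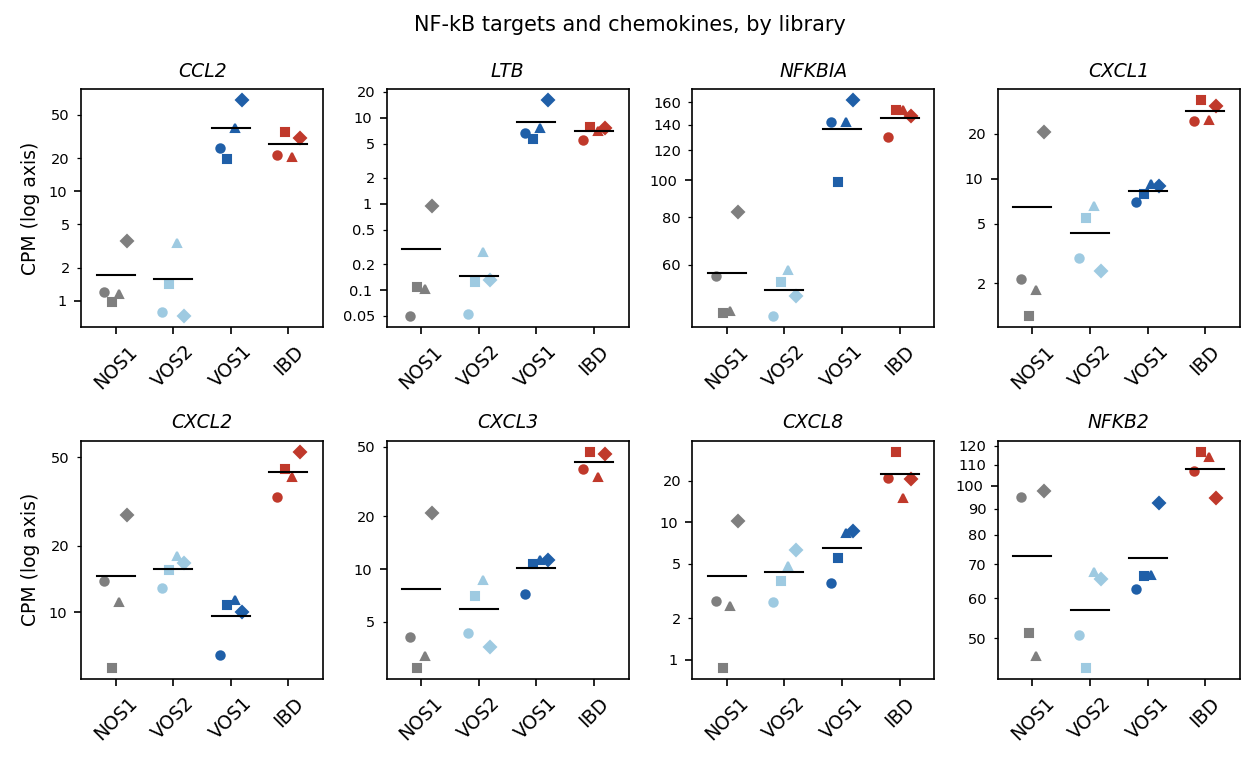
Level in CPM (log axis) of 8 NF-kB targets and chemokines in the 4 libraries of each table. Points are libraries, with circle, square, triangle and diamond for replicates 1 to 4, and lines are means. CCL2, LTB and NFKBIA are high in both VOS1 and IBD, and CXCL1, CXCL2, CXCL3 and CXCL8 are highest in IBD, with CXCL1 in NOS1 replicate 4 at 20.6 CPM.

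The CXC chemokines, which attract neutrophils through CXCR2, were higher in IBD than in VOS1. CXCL2 was at 33.2, 44.5, 40.7 and 53.1 CPM in IBD and 6.43, 10.8, 11.3 and 10 CPM in VOS1, with VOS2 at 12.8 to 18 CPM and NOS1 at 5.6 to 27.5 CPM. All 4 IBD libraries lay above all 12 others. CXCL2 was 4.44-fold higher in IBD than in VOS1 (log2 2.15 ± 0.32, edgeR adjusted p = 3.13e-05) and 2.72-fold higher than in VOS2 (1.44 ± 0.31, adjusted p = 0.0121). The call against VOS2 was lost without IBD replicate 4. Between VOS1 and NOS1 the difference was -0.59 ± 0.31 (adjusted p = 0.133).

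CXCL3 was at 37, 46.9, 33.6 and 45.4 CPM in IBD and 7.25, 10.7, 11.2 and 11.3 CPM in VOS1, a 4.02-fold difference (log2 2.01 ± 0.46, edgeR adjusted p = 0.0019). CXCL8, interleukin 8, was at 20.9, 32.7, 15.1 and 20.6 CPM in IBD and 3.62, 5.5, 8.31 and 8.72 CPM in VOS1, a 3.41-fold difference (1.77 ± 0.47, adjusted p = 0.00543). CXCL1 was at 24.2, 33.6, 24.7 and 30.5 CPM in IBD and 6.93, 7.86, 9.13 and 8.92 CPM in VOS1, 3.44-fold (1.78 ± 0.59, adjusted p = 0.0202). For each of the 3 genes the IBD libraries lay above all 12 others. The call of CXCL1 was lost without VOS1 replicate 1 (adjusted p = 0.054) and without IBD replicates 3 and 4 (adjusted p = 0.0558), with log2 fold changes of 1.71 and 1.81. Against VOS2, CXCL3, CXCL8 and CXCL1 were higher in IBD by 2.78, 2.36 and 2.7 in log2. The call of CXCL1 there was lost without VOS2 replicate 1 or 4, or without IBD replicate 4. CXCL1, CXCL2 and CXCL3 are close paralogs, and reads that match more than one of them may be split between them.

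CXCL5 had 214 to 262 reads per library in IBD, 22 to 71 in VOS1, 0 to 7 in VOS2 and 0 to 44 in NOS1. It was higher in IBD than in VOS1 by 2.89 ± 0.64 in log2 (edgeR adjusted p = 0.00143, DESeq2 adjusted p = 0.0793), and it overlaps another gene in RefSeq. NFKB2, the precursor of the p52 subunit, was at 94.5 to 117 CPM in IBD and 62.5 to 92.3 CPM in VOS1. Its difference of 0.59 ± 0.21 (edgeR adjusted p = 0.0327) was lost when any of VOS1 replicates 1 to 3 or IBD replicates 1 to 3 was left out, and was -0.01 on FPKM. Of the 35 genes in the list of NF-kB targets and epithelial cytokines, 9 were tested. In IBD against VOS1, 6 were higher and 0 lower, where 18.3% of all tested genes were higher. Their median log2 fold change was 1.77, and -0.00661 over all. In IBD against VOS2 all 9 tested were higher (median 2.698, and 0.0119 over all), where 2.02% of all genes were higher. Listed genes under 5 reads in every library of IBD or of VOS1 could not be tested, so the 9 are selected for expression in IBD. LTB and CXCL5, with at most 5 and 7 reads per library in VOS2, passed the filter on low counts through other tables. VOS1 against NOS1 gave 3 higher and 0 lower (median 0.681, and -0.00907 over all), where 24.5% of all genes were higher, namely CCL2, LTB and NFKBIA. The leukocyte markers summed to 20.9 to 34.1 CPM in IBD, 26.6 to 40.2 CPM in VOS1 and 17.2 to 25.6 CPM in the other tables. The 5 markers above 1 CPM were LAPTM5, ITGAM, CSF1R, FCER1G and CD14. FCER1G had a mean of 4 CPM in IBD and 1.79 to 2.28 CPM in the other tables, and ITGAM 7.3 CPM in IBD and 4.37 to 6.14 CPM in the others. LAPTM5 had 7.23 CPM in IBD and 14.7 CPM in VOS1, CSF1R 5.06 and 8.91 CPM, and CD14 2.75 and 3.44 CPM. Only 2 of the 14 leukocyte markers met the length rule, CD14 among them. The sums and most of these values may therefore compare features of unlike length between VOS1 and the other tables. TYROBP was at 0 in all 16 libraries, and the mean of PTPRC in IBD was 0.0635 CPM. The part of such cells in these results was not tested.

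Of 35 HIF targets outside glycolysis, 5 had comparable lengths and were tested, and none is a separate gene. In VOS1 against NOS1, 3 of the 5 were higher and 0 lower, where 24.5% of all tested genes were higher. Between IBD and VOS2, 2 were higher in IBD and 0 lower, where 2.02% of all were higher. In IBD against VOS1, 0 were higher and 2 lower, where 22.6% of all were lower. BHLHE40, a transcriptional repressor induced by hypoxia, was at 34.2, 23.3, 114 and 89.6 CPM in IBD and 82.4, 86.6, 65.5 and 40 CPM in VOS1. VOS2 had 16.8 to 21.6 CPM and NOS1 12.3 to 67 CPM. IBD and VOS1 overlapped (log2 -0.07 ± 0.46, edgeR adjusted p = 0.91), and IBD was above VOS2 by 1.77 ± 0.49 (adjusted p = 0.0476). That call was lost without any one VOS2 library and without IBD replicate 3 or 4, among others.

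VEGFA, the vascular growth factor, was at 367, 328, 615 and 459 CPM in IBD and 844, 652, 713 and 521 CPM in VOS1. VOS2 had 344 to 404 CPM and NOS1 285 to 418 CPM. It was 1.96-fold higher in VOS1 than in NOS1 (log2 0.97 ± 0.17, edgeR adjusted p = 0.000188) and lower in IBD than in VOS1 (-0.63 ± 0.17, adjusted p = 0.00707). It was within the spread in IBD against VOS2 (0.24 ± 0.17, adjusted p = 0.544). ANKZF1, a factor of ribosome quality control, was at 77.1, 44.8, 121 and 92.9 CPM in IBD and 109 to 146 CPM in VOS1, with VOS2 and NOS1 at 43 to 61.2 CPM. It was higher in IBD than in VOS2 (0.84 ± 0.20) and in VOS1 than in NOS1 (1.43 ± 0.20), and lower in IBD than in VOS1 (-0.66 ± 0.20, adjusted p = 0.0124). Its call against VOS2 was lost without IBD replicate 3 or 4, or without VOS2 replicate 1, 3 or 4.

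ADM, the vasodilator peptide adrenomedullin, was at 17, 14.9, 52.6 and 37.6 CPM in IBD and 43.2, 60, 32.9 and 32.3 CPM in VOS1. It was higher in VOS1 than in NOS1 (1.38 ± 0.34, edgeR adjusted p = 0.00243), where it was at 15.9 to 16.6 CPM. DDIT4, an mTOR inhibitor induced by hypoxia and stress, was at 127, 66.5, 330.2 and 229 CPM in IBD and passed in no comparison. In all 5 genes IBD replicates 3 and 4 lay above replicates 1 and 2, and in VOS1 replicate 4 was the lowest.

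**Figure D3:**
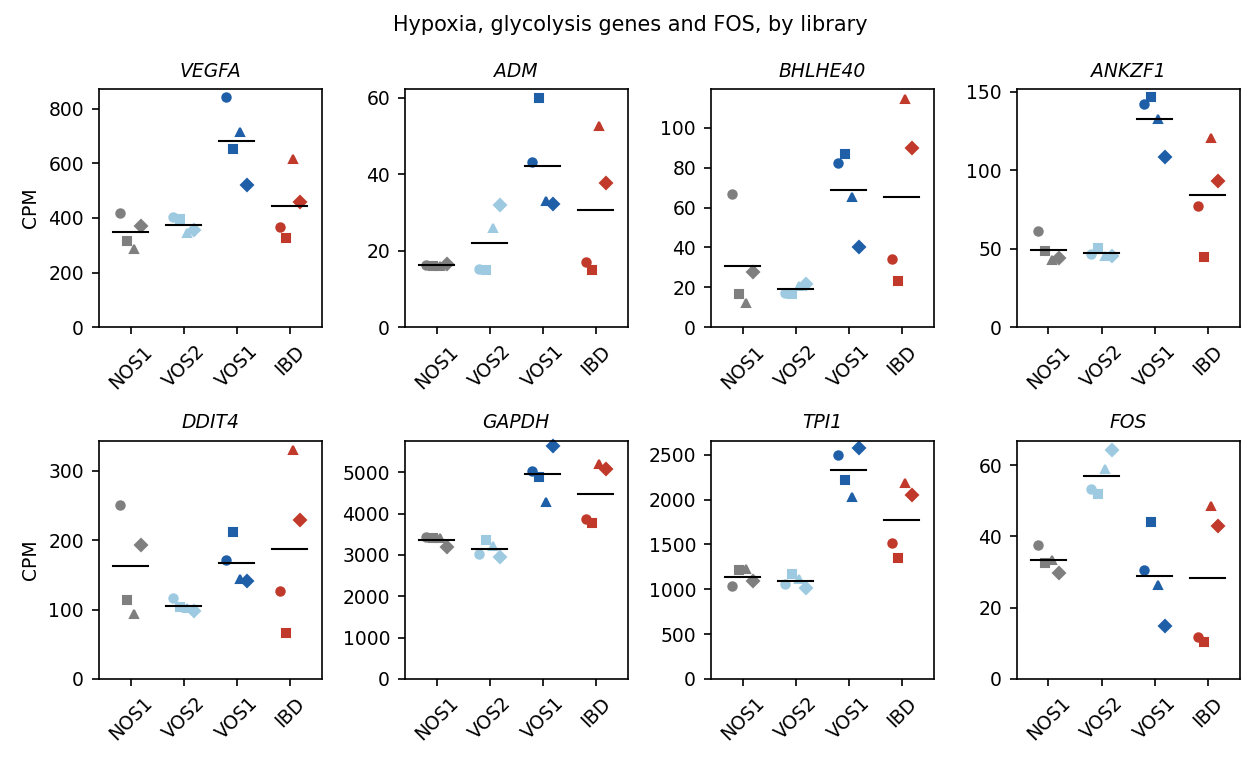
Level in CPM (linear axis) of 5 HIF targets, 2 glycolytic enzymes and FOS in the 4 libraries of each table. Points are libraries, with circle, square, triangle and diamond for replicates 1 to 4, and lines are means. IBD replicates 3 and 4 lie above replicates 1 and 2 in all 8 genes, for example BHLHE40, at 34.2, 23.3, 114 and 89.6 CPM in replicates 1 to 4.

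The glycolytic enzymes GAPDH and TPI1 were the only 2 of 26 glycolysis genes tested. GAPDH was at 3873, 3773, 5206 and 5070.1 CPM in IBD and 5039, 4893, 4289 and 5626 CPM in VOS1, and at 2942 to 3426 CPM in VOS2 and NOS1. It was higher in both shared comparisons, by 0.51 ± 0.11 and 0.56 ± 0.11 in log2, and IBD and VOS1 overlapped (-0.15 ± 0.11, edgeR adjusted p = 0.304). TPI1 was at 1513, 1347, 2179.7 and 2048 CPM in IBD and 2028 to 2577 CPM in VOS1, against 1016 to 1227 CPM in the others. It was higher by 0.70 ± 0.13 and 1.03 ± 0.13, and lower in IBD than in VOS1 (-0.39 ± 0.13, adjusted p = 0.0212). Each overlaps another gene in GENCODE v29. Both calls against VOS2 were lost without IBD replicates 3 and 4, and that of GAPDH also without either of them or without VOS2 replicate 4. The call of TPI1 against VOS1 was lost without VOS1 replicate 1 or 4, without IBD replicate 1 or 2, and with the 2 tables alone.

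Other genes higher in both comparisons, with ranges apart, were SAT1, CEBPD, GATA6-AS1, CCDC28B, ELF3 and TMSB4X. SAT1, the polyamine acetyltransferase, rose by 1.0 ± 0.16 and 0.89 ± 0.16 in log2 and CEBPD, an inflammation-induced C/EBP factor, by 1.12 ± 0.18 and 0.88 ± 0.17. The calls of GATA6-AS1 and CCDC28B in IBD against VOS2 were lost without IBD replicates 3 and 4, and that of GATA6-AS1 also without IBD replicate 1, 3 or 4 or VOS2 replicate 2, 3 or 4. TMSB4X, the actin-sequestering thymosin beta 4 and a separate gene, was at 474 to 764 CPM in IBD, 614 to 682 CPM in VOS1, 366 to 416 CPM in VOS2 and 419.5 to 599 CPM in NOS1. It rose by 0.57 ± 0.14 and 0.42 ± 0.14. The call in IBD was lost without any one VOS2 library or without IBD replicate 3 or 4, and that in VOS1 without NOS1 replicate 2 or 3. ELF3, an epithelial ETS factor induced by NF-kB, was at 78.1 to 133 CPM in IBD, 199.6 to 246 CPM in VOS1, 61.7 to 68.5 CPM in VOS2 and 45.2 to 69.2 CPM in NOS1. It was higher in IBD than in VOS2 (0.64 ± 0.16), a call lost without IBD replicate 3 or 4, without VOS2 replicate 1, 3 or 4 and on log2(FPKM + 1), and lower than in VOS1 (-1.11 ± 0.16, edgeR adjusted p = 1.62e-05). It stood between the swing tables.

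In the comparison of IBD with VOS1 itself, 951 of 2328 genes passed (40.9%), 426 higher in IBD (18.3%) and 525 lower (22.6%). At a fold of 2 or more 337 passed (14.5%). The share called fell with the length ratio, from 52.2% of 578 genes at ratios of 0.5 to 0.6 to 29% of 755 genes at 0.99 to 1.1. For separate genes these shares were 48.9% and 29.9%. Among the 693 separate genes, 290 passed (41.8%), 141 higher (20.3%) and 149 lower (21.5%), and 86 of them at a fold of 2 or more (12.4%). Libraries of the 2 tables did not overlap for 807 genes (34.7%). The split depends on scaling. When all genes of the tables were used, 274 were higher and 815 lower, with the median of the comparable genes at -0.207 in log2. On log2(FPKM + 1), 200 were higher and 1129 lower, with the median at -0.236. On log2(FPKM + 0.1) the numbers were 216 and 1115, with the median at -0.391.

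**Figure D4:**
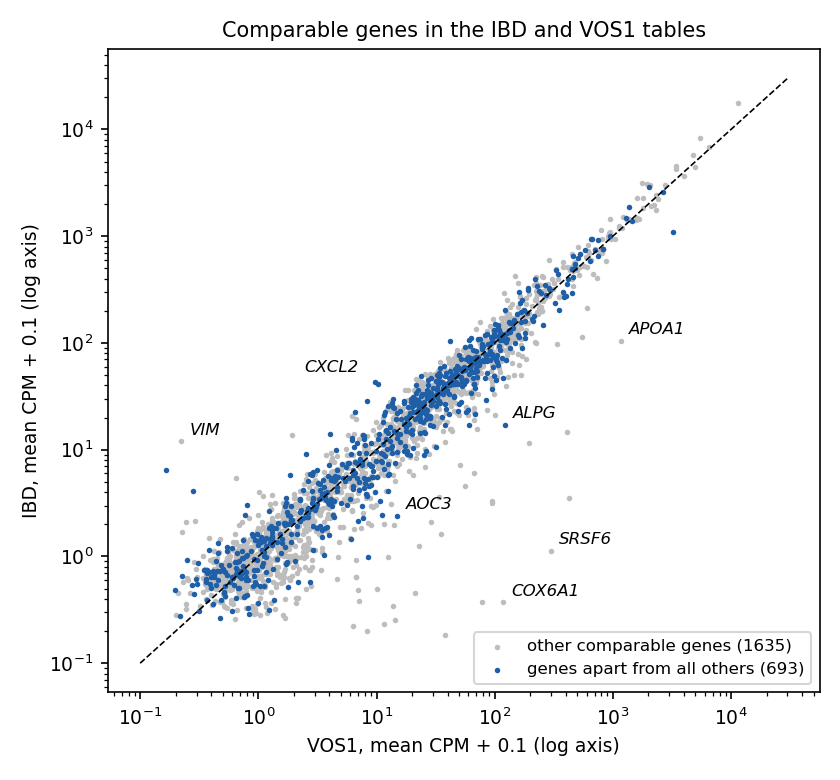
Mean CPM plus 0.1 in VOS1 (x) and IBD (y), both on log axes, for the 2328 tested genes, each point a gene. The 693 separate genes are blue and the other 1635 grey. Of 32 genes at least 8-fold lower in IBD, such as SRSF6 and COX6A1, 1 is separate.

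The rule for named genes takes genes past an adjusted p of 0.05 with ranges apart, at least 1 CPM in the lower table and log2 CPM averaging 2 or more, and leaves out pseudogenes and clone names. Among separate genes within these limits, the most raised in IBD over VOS1 besides the chemokines were ZIC2, PMAIP1, DNTTIP2, PLK2, ECM1 and CCRL2. PMAIP1, the p53-induced apoptosis factor NOXA, was at 11.7, 12.9, 14.5 and 16.2 CPM in IBD and 3.08, 5.82, 3.39 and 3.52 CPM in VOS1 (log2 1.8 ± 0.22, edgeR adjusted p = 4.31e-06). VOS2 had 15.8 to 17.8 CPM and NOS1 12.1 to 23.7 CPM, so VOS1 was the low table. ZIC2, a zinc finger factor, had 7.71 to 10.7 CPM in IBD, 1.77 to 3.2 CPM in VOS1 and 9.94 to 14.5 CPM in the other tables. DNTTIP2, a nucleolar protein, was at 94.4 to 109.5 CPM in IBD, 31.9 to 51.5 CPM in VOS1 and 87.9 to 118 CPM in the others. VOS1 was lowest for both.

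PLK2, a stress-induced kinase, was higher in IBD than in VOS1 by 1.13 ± 0.20 in log2. ECM1, an extracellular matrix protein, was higher by 1.12 ± 0.32. CCRL2, an atypical receptor that binds chemerin, was higher by 1.12 ± 0.21, with 4.06 to 8.39 CPM in IBD, 2.45 to 3.06 CPM in VOS1 and 3.32 to 4.75 CPM in VOS2. The ranges of IBD and VOS2 overlapped for CCRL2. For PLK2 and ECM1 the log2 fold changes were -0.56 and 0.16 in IBD against VOS2. In VOS1 against NOS1 they were -1.62 and -1.2, so VOS1 was the low table on the means. ECM1 and CCRL2 did not pass on FPKM. Of genes that are not separate, DKC1, the pseudouridine synthase dyskerin, and NAMPT, the NAD-salvage enzyme, were 2.43-fold and 2.83-fold higher in IBD. Mean levels of DKC1 were 293 CPM in IBD, 121 CPM in VOS1, 316 CPM in VOS2 and 332 CPM in NOS1, so VOS1 was the low table. NAMPT was at 341 to 492 CPM in IBD, 98.9 to 186 CPM in VOS1 and 202 to 310.1 CPM in the others.

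Some genes set IBD apart from both swing tables. These 2 comparisons share the IBD libraries, so their values stand side by side. Besides CXCL1, CXCL2, CXCL3, CXCL8, NFKB2 and NAMPT, the genes GPD1, POP5 and MANF were higher in both. Their log2 fold changes were 0.54, 0.60 and 0.38 against VOS1 and 0.64, 0.43 and 0.33 against VOS2. GPD1 is the cytosolic glycerol-3-phosphate dehydrogenase, POP5 a subunit of ribonuclease P and MANF a secreted factor of the endoplasmic reticulum stress response. On log2(FPKM + 1), GPD1 and MANF passed in the opposite direction. They were lower in IBD than in VOS1, at -0.31 and -0.54 (limma adjusted p = 0.0133 and 9.75e-05). The calls of POP5 and MANF against VOS2 were lost under 23 alternatives each. That of NAMPT was lost under 16, among them without any one VOS2 library and without IBD replicate 3 or 4. Those of NFKB2 and GPD1 were lost without VOS2 replicate 1 or 2 and without VOS2 replicate 3.

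ALPG and ALPP, the germ-cell and placental alkaline phosphatases, were lowest in IBD. ALPG, a separate gene on chromosome 2 from 232406843 to 232410714 (GENCODE v29, GRCh38), was at 20.8, 13.7, 20.1 and 13.8 CPM in IBD and 177, 64.1, 129.7 and 116 CPM in VOS1. VOS2 had 38.7 to 63.8 CPM and NOS1 37.5 to 66.9 CPM, so every IBD library lay below the other 12. ALPG was 7.1-fold lower in IBD than in VOS1 (log2 -2.83 ± 0.27, edgeR adjusted p = 1.28e-07) and 3.05-fold lower than in VOS2 (-1.61 ± 0.26, adjusted p = 0.00137). ALPP, which overlaps another gene, was at 5.62 to 9.11 CPM in IBD and 22.1 to 70.1 CPM in VOS1. Its log2 fold change was -2.86 ± 0.34 against VOS1 and -1.67 ± 0.34 against VOS2. The 2 genes are close paralogs, and reads may be split between them.

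Lower in IBD than in both were also ADM2, MFGE8, GADD45A, CEBPA, FZD7, LINC01836 and AJUBA. ADM2, the adrenomedullin-related peptide intermedin, was at 4.94 to 11.8 CPM in IBD, 12 to 15.9 CPM in VOS1 and 12.3 to 19.5 CPM in VOS2, with log2 fold changes of -0.94 ± 0.21 and -1.2 ± 0.21. MFGE8, a bridging protein for apoptotic cells, had -1.32 ± 0.12 and -0.43 ± 0.12, and the second call was lost under 17 alternatives. GADD45A, a growth-arrest and DNA-damage gene, had -0.41 ± 0.11 and -0.60 ± 0.11. CEBPA, a differentiation factor of the C/EBP family, had -1.54 ± 0.10 and -0.48 ± 0.10, and FZD7, a Wnt receptor, -0.71 ± 0.10 and -0.40 ± 0.10. LINC01836, a long non-coding RNA, had -0.44 ± 0.12 and -0.90 ± 0.13. The calls of ALPP, CEBPA and FZD7 against VOS2 were lost without IBD replicates 3 and 4, and that of FZD7 also without VOS2 replicate 1 or 3 or IBD replicate 4.

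Among the largest falls from VOS1 to IBD by the rule for named genes were those of SRSF6, RGL2, CLDN7, UCA1, FZD4, NME6, AJUBA, IRGQ and AP1G2, from -8.18 to -3.63 in log2. None of these 9 is separate, and all but SRSF6 overlap an annotated gene. In IBD none exceeded 17.6 CPM and in VOS2 and NOS1 none exceeded 19.7 CPM. Treatment and counting of VOS1 cannot be told apart in these values.

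Among separate genes within the limits of that rule, the largest falls after ALPG were those of AOC3, FNDC4, C11orf86, B3GNT7, TMEM191B, INHBB, ANKRD40CL, RNF223 and CLDN19, from -2.69 to -1.58 in log2. AOC3, the vascular adhesion protein and amine oxidase, was at 1.32, 1.72, 3.32 and 2.87 CPM in IBD and 21.5, 9.98, 19.7 and 8.22 CPM in VOS1, with VOS2 and NOS1 at 0.492 to 2.22 CPM. CLDN19, a tight junction claudin, was at 5.66 to 16.8 CPM in IBD, 22.3 to 39.4 CPM in VOS1 and 6.12 to 8.57 CPM in the others. INHBB, the activin beta B subunit, was at 2.35 to 4.11 CPM in IBD and 9.37 to 12.1 CPM in VOS1. VOS1 lay above the 12 other libraries for all 3. Endothelial markers summed to 21 to 33.9 CPM in IBD and 18.2 to 24.5 CPM in VOS1, and only 1 of the 11 met the length rule.

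**Figure D5:**
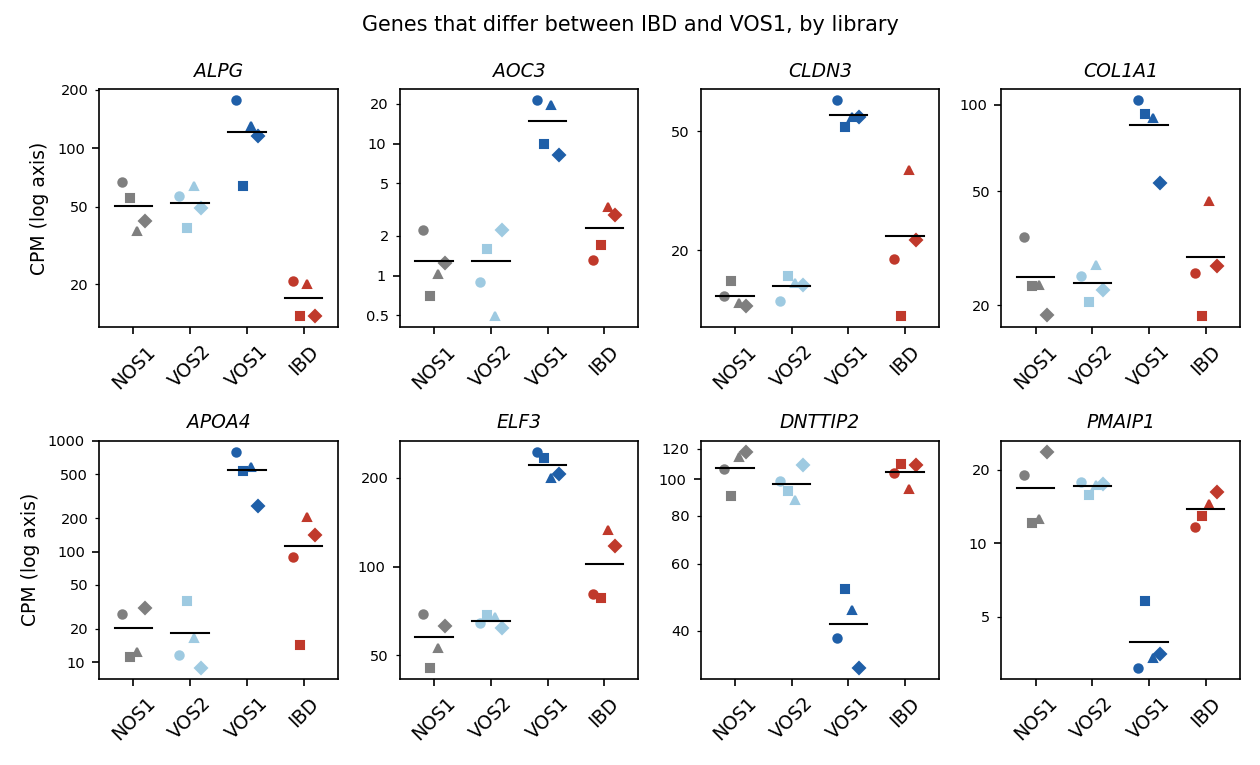
Level in CPM (log axis) of 8 genes that differed between IBD and VOS1, in the 4 libraries of each table. Points are libraries, with circle, square, triangle and diamond for replicates 1 to 4, and lines are means. ALPG is lowest in IBD, at 13.7 to 20.8 CPM, and in the other 7 genes VOS1 is the highest or the lowest table.

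Few listed genes of enterocyte function had comparable lengths. CLDN3, a tight junction claudin and a separate gene, was at 18.7, 12, 37 and 21.7 CPM in IBD and 63.8, 51.7, 55.8 and 55.9 CPM in VOS1 (log2 -1.35 ± 0.22, edgeR adjusted p = 6.99e-05). VOS2 and NOS1 were at 13 to 16.4 CPM. ALPI, the intestinal alkaline phosphatase of the brush border, was at 24.8 to 38.2 CPM in IBD and 55.8 to 72 CPM in VOS1 (-1.06 ± 0.14). In VOS2 it was at 28.3 to 32.5 CPM and in NOS1 at 21.8 to 35.8 CPM. ALPI is 1 of 2 tested of 30 brush border genes, and both were lower in IBD than in VOS1, where 22.6% of all tested genes were lower. In IBD against VOS2 neither of the 2 passed, where 3.99% of all did. Both were higher in VOS1 than in NOS1, where 24.5% of all were. The 3 tested of 24 genes of lipid absorption, the apolipoproteins APOA1, APOA4 and APOE, were also lower in IBD than in VOS1, and all overlap an annotated gene. Of 4 tested intestinal identity transcription factors 1 was lower and 3 did not pass, and the 1 tested transmembrane mucin did not pass.

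APOA4, a chylomicron apolipoprotein of the enterocyte, was at 89.8, 14.4, 207 and 142 CPM in IBD and 801, 534, 583 and 260.0 CPM in VOS1, against 8.85 to 35.8 CPM in VOS2 and NOS1. It was lower in IBD than in VOS1 (-2.26 ± 0.57) and higher than in VOS2 (2.64 ± 0.60, edgeR adjusted p = 0.0158). The second call was lost without IBD replicate 3 or 4 and without VOS2 replicate 1, 3 or 4. ZG16, a lectin secreted by goblet cells, had 11.6, 1.33, 44.9 and 28.7 CPM in IBD and 35.9 to 89.3 CPM in VOS1, against at most 3.61 CPM in the others. Its difference from VOS1 (-1.65 ± 0.57) was lost without VOS1 replicate 1 or 2 or IBD replicate 1. APOA1 differed between IBD and VOS1 by -3.47 ± 0.24 in log2 and APOE by -0.85 ± 0.12. Mean levels of APOA1 were 105 CPM in IBD, 1161 CPM in VOS1, 74.7 CPM in VOS2 and 77.1 CPM in NOS1. Those of APOE were 407, 732, 525 and 473 CPM in the same order.

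COL1A1, a chain of type I collagen, was higher in VOS1 as well, at 53.2 to 104 CPM against 18.3 to 46 CPM in IBD (-1.53 ± 0.25, edgeR adjusted p = 7.08e-05). Its partner chain COL1A2 had a mean of 0.0352 CPM in VOS1 and 0 in IBD. Fibroblast markers summed to 40.7 to 62.6 CPM in IBD and 71.3 to 126 CPM in VOS1, and COL1A1 was the highest of them in both. PDGFRA had a mean of 4.54 CPM in VOS1 and 0.163 CPM in IBD, and PDGFRB 6.68 and 2.16 CPM. LUM had 8.21 and 5.49 CPM and COL3A1 1.86 and 1.1 CPM, while VIM had 0.122 and 11.9 CPM. Of the fibroblast markers, only COL1A1 and VIM met the length rule. Values of the others, and the sums, may rest on features of unlike length in VOS1 and IBD. DCN, THY1 and POSTN were at 0 in IBD and VOS1. The part of such cells in the result was not tested.

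Of 13 tested mitochondrial mRNAs, 8 were higher in IBD than in VOS1, 5 did not pass and 0 were lower (median log2 fold change 0.414, and -0.00661 over all genes), where 18.3% of all tested genes were higher. MT-ND2, a subunit of complex I, was at 2739, 3347, 2674 and 3594 CPM in IBD and 1779, 1800.1, 2525 and 1605 CPM in VOS1 (0.68 ± 0.14, edgeR adjusted p = 0.00071). IBD lay above VOS1. MT-CO1, a core subunit of cytochrome c oxidase, was higher by 0.62 ± 0.14. MT-ND4 and MT-ND4L, which share one transcript and overlap, were higher by 0.61 ± 0.15 and 0.62 ± 0.14. All 13 are encoded by mitochondrial DNA and need not vary separately. In IBD against VOS2, 0 of the 13 passed in either direction by edgeR, where 3.99% of all tested genes passed. VOS1 against NOS1 gave 1 lower and 0 higher, where 20.5% and 24.5% of all were. Mitochondrial genes held 5.62% to 6.72% of all counts in IBD, 3.925% to 5.604% in VOS1 and 4.481% to 6.938% in the other tables. Of 11 tested nuclear subunits of the respiratory chain 3 were higher in IBD than in VOS1 and 1 lower, where 18.3% and 22.6% of all tested genes were. The higher ones included CYCS, cytochrome c, at 325 to 425 CPM in IBD and 129.6 to 185 CPM in VOS1. CYCS was at 273 to 351 CPM in VOS2 and 260 to 386 CPM in NOS1.

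Of 13 tested genes of the unfolded protein response and the integrated stress response, 7 were higher in IBD than in VOS1 and 1 was lower (median 0.263, and -0.00661 over all), where 18.3% and 22.6% of all tested genes were. In IBD against VOS2, 1 was higher, MANF, and 2 were lower, CHAC1 and PPP1R15A, where 2.02% and 1.98% of all were. In VOS1 against NOS1, 2 were higher and 8 lower (median -0.34, and -0.00907 over all), where 24.5% and 20.5% of all were. Of 5 tested antigen presentation genes, 2 were higher and 2 lower in IBD than in VOS1, against 40.9% of all tested genes called in either direction. PSMB8, an immunoproteasome subunit, was at 2.68 to 4.77 CPM in IBD and 0.629 to 1.1 CPM in VOS1. Its log2 fold change was 0.37 in IBD against VOS2 and -3.84 in VOS1 against NOS1. HLA-C was at 16.7 to 20.7 CPM in IBD and 26.1 to 36.1 CPM in VOS1, with VOS2 at 16.8 to 20.3 CPM and NOS1 at 14.6 to 17 CPM. Both overlap an annotated gene, and reads of HLA genes may be split between close paralogs. Of 7 tested ERK feedback genes, 3 were higher and 2 lower in IBD than in VOS1, and of 5 tested NRF2 targets and metallothioneins, 1 was higher and 0 lower, against the same 18.3% higher and 22.6% lower over all.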

How the data were processed

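Polyadenylated RNA of Caco-2 cells was sequenced in 16 libraries. Per the submitters' processing notes, the tools named, with no role or order, were featureCounts 2.0.6, STAR 2.7.11a, DESeq2 1.42.0, FastQC 0.12.1 and fastp 0.23.4, and the build was hg38. No source used here gives the strand setting. The authors deposited raw counts per gene and, from them, FPKM values. Every value column was used (0 left out). The log2 fold changes, SEs and p-values were computed here from the deposited counts with edgeR 4.0.16 in R 4.3.3. The quasi-likelihood test was fitted to all 4 tables in one model, with TMM factors from the comparable genes, the default filter on low counts and Benjamini-Hochberg adjustment over 2328 genes. CPM are counts divided by the total count times the TMM factor. The SE is the absolute log2 fold change over the square root of F. Limma 3.58.1 on log2(FPKM + 1), DESeq2 1.42.0 and the other alternatives are in the closing section. The scripts were tested on simulated data. Named genes were EGR1, the 10 largest changes in each direction for each comparison or pair of comparisons among genes past an adjusted p of 0.05 with ranges apart, at least 1 CPM in the lower table and log2 CPM averaging 2 or more, and up to 4 genes per list. Some genes that met this rule are not reported here. KLF10, FOS, JUN, LTB and others named beside them come from the lists or were chosen after their values were seen. Members and lists were chosen with earlier results of these data known. Total counts were 15078620 to 28148186 per library.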

Additional observations from a re-analysis of the deposited data

Results flagged for a closer look

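In 18 of 360 groups of 4 libraries (90 genes in 4 tables), 1 library lay far from the other 3 by Dixon's criterion, where chance gives about 1 in 20. NOS1 replicate 4 was set apart for CCL2 (3.5 CPM), LTB (0.9501 CPM), CXCL1 (20.55 CPM), CXCL3 (20.85 CPM) and CXCL5 (2.2 CPM), all above the other NOS1 libraries, and for GAPDH (3180 CPM) and MT-ND4L (771.9 CPM), below them. NOS1 replicate 1 was set apart for DUSP2 (20.99 CPM) and JUND (96.89 CPM). In VOS1, replicate 1 was set apart for CXCL3 (7.25 CPM), FNDC4 (12.78 CPM), LINC01836 (11.37 CPM) and ECM1 (2.175 CPM), replicate 2 for PMAIP1 (5.817 CPM) and replicate 4 for NFKB2 (92.34 CPM). In VOS2, replicate 2 was set apart for MT-ND2 (3537 CPM) and MT-CO1 (20760 CPM). In IBD, replicate 2 was set apart for CCN1, at 51.15 CPM against 29.71 to 30.7 CPM in the others.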

How the results depend on the processing

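In IBD against VOS1, the 951 calls became 234 and 196 at length ratios of 0.9 to 1.1 and with lengths within 1%, 286 with separate genes alone and 337 at a fold of 2 or more, settings that test or count fewer genes. The share called was also lower at similar lengths, 29% at ratios of 0.99 to 1.1 against 52.2% at 0.5 to 0.6. Leaving out single libraries gave 821 to 1036. In IBD against VOS2, the 93 calls became 31, 29, 41 and 42 under the same 4 settings, 27 without IBD replicates 3 and 4, 137 with DESeq2, and 45 (without IBD replicate 4) to 134 (without VOS1 replicate 4) on leaving out single libraries. Without VOS2 replicate 1, 3 or 4 or IBD replicate 3 they were 57, 54, 48 and 59. Limma on log2(FPKM + 1) and log2(FPKM + 0.1) split that comparison into 23 higher and 46 lower and 29 higher and 49 lower. In VOS1 against NOS1, the 1048 calls became 274, 232, 310 and 422, and 899 to 1157 on leaving out single libraries. Its split was 794 higher and 331 lower with all genes of the tables in the fit, and 1104 and 276 or 1087 and 284 on FPKM. Library deviations with the same replicate number in IBD and VOS1 correlated at -0.0967, -0.242, 0.0669 and -0.131. No label pairs these libraries beyond the number, and a shared culture or run was not tested. With the number as a block, 913, 61 and 1018 genes passed in the 3 comparisons, and EGR1 differed by 0.3167 between IBD and VOS1.

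The EGR1 difference between IBD and VOS1 passed under no setting run and changed sign on FPKM (-0.0143 and -0.01533) and without IBD replicates 3 and 4 (-0.5359), and it was 0.059 to 0.6713 on leaving out single libraries. On log2(FPKM + 1) and log2(FPKM + 0.1), the log2 fold change between IBD and VOS1 changed sign for BEX2 (-0.1704 and -0.2305), ENC1 (-0.2734 and -0.2925), GPD1 (-0.3147 and -0.3928), KLF10 (-0.1436 and -0.1618), MANF (-0.5401 and -0.5702), NFKB2 (-0.007384 and -0.006869), SAT1 (-0.04846 and -0.0489), PPP1R15A (-0.07973 and -0.08387), DDIT4 (-0.0683 and -0.07217) and NFKBIA (-0.01132 and -0.0109), and for KLF10 in VOS1 against NOS1 (0.2304 and 0.2617). With all genes in the fit it changed sign for PPP1R15A (-0.09959), DDIT4 (-0.04362), NFKBIA (-0.117) and CEBPD (-0.08187), and with ratios of 0.9 to 1.1 for NFKBIA (-0.03929). Without IBD replicates 3 and 4 it was 0.1691 for CYP1A1 and -0.7886 for DDIT4. Leaving out single libraries changed the sign for 6 genes, with ranges of BHLHE40 -0.4832 to 0.2167, CYP1A1 -0.4234 to 0.00995, DDIT4 -0.2479 to 0.455, FOS -0.418 to 0.2514, LTB -0.534 to 0.08944 and NFKBIA -0.02199 to 0.2063. The cause was not tested. Of the other values of named genes under these settings, 5479 kept direction and side of the threshold, 250 lost the call and 21 gained it. LTB, CXCL5, COX6A1 and VIM had libraries under 10 reads, which limits their fold changes.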
